A study of Mus musculus with 6 samples.

Results

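Circular RNAs whose back-splice ends lie more than 20000 bases apart in the genome were examined in adherent peritoneal cells of mice given BSN-37 or PBS. The deposited table gives each circular RNA as a chromosome, a start and an end. A locus belonged to the set when its end minus its start plus 1 was above 20000, and no measured level entered that choice. The set held 205 of the 1273 circular RNA loci of the table (16.1%), next to 450 loci of 5 to 20 kb and 618 loci of up to 5 kb. Just inside the limit were loci of Ift81 (20028 bases, 2 reads) and Trmt11 (20215 bases, 3 reads), and just outside it were loci of Mpp6 (19931 bases, 53 reads) and Adamts6 (19937 bases, 3 reads).

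A circular RNA forms when the spliceosome joins the donor at the end of one exon back to the acceptor at the start of an earlier exon, so that the RNA has no free ends and resists exonucleases. The exons between the 2 ends are usually spliced to each other, so a circle that spans a long stretch of the genome can itself be short. A read is assigned to a circle when it crosses the back-splice junction, and in cells rich in innate immune genes such circles have been studied as ligands of RNA sensors and as binders of miRNAs and proteins.

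The animals were male Balb/c mice aged 6 to 8 weeks, and both groups received 2 mL of 3% thioglycollate broth into the peritoneum, given from 3 days before collection, to draw macrophages there. The PBS group then received 0.2 mL of PBS per mouse and the BSN-37 group 0.2 mL of BSN-37 at 48 µg/mL, an agent that the labels name without describing, and cells were washed out 12 h later and left to adhere for 4 h. Each library pooled 6 mice, with 3 libraries and 18 mice per group, so differences between single animals were not measured. The series text describes microarrays, whereas the files hold sequencing counts from rRNA-depleted total RNA, and only the counts were used.

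The 6 libraries held 55.9 to 65.5 M gene reads (M for 1000000) and 2447 to 4564 back-splice junction reads. With PBS there were 68.2, 47.7 and 66.1 junction reads per M gene reads, and with BSN-37 there were 81.7, 61.4 and 37.7 in libraries 1, 2 and 3. The labelled cell type is macrophage, and the 9 pan-macrophage markers measured were detected in every library, with a summed level of 15262 to 17742 FPKM (fragments per kilobase of gene per M mapped) with PBS and 15463 to 18048 FPKM with BSN-37. Lyz2 made up most of that sum (13215 to 15802 FPKM over the libraries), while Mertk was at 7.11 to 13.7 and Fcgr1 at 4.28 to 19.3 FPKM. Of 8 classical monocyte markers, 5 were higher and 1 lower at an unadjusted edgeR p under 0.05, against 8.23% of all genes tested, and Ccr2, Ly6c2 and Vcan were among the higher. Their summed level was 2102 to 2370.2 against 2408 to 2967 FPKM, most of it Fn1 at 1967 to 2683 FPKM, whose unadjusted edgeR p was 0.393. At the same threshold 4 of 10 large resident macrophage markers were higher (128 to 171 against 153 to 245 FPKM) and 3 of 5 tested B cell markers (7.25 to 16 against 13.9 to 31.0 FPKM). No marker passed the adjusted edgeR threshold of 0.05, while DESeq2 passed 3 monocyte and 2 B cell markers. Neutrophil markers summed to 133 to 164 against 159 to 263 FPKM, with 1 of 7 tested (Csf3r) higher at the unadjusted threshold. Erythroid and platelet markers summed to 155 to 239 against 234 to 241 FPKM, most of it Pf4. The other platelet markers were low, with Ppbp at 1.79 to 4.37 FPKM, Itga2b at 0.191 to 0.541 and Gp9 at 0 in every library. The globin genes Hba-a1 and Hbb-bs were at 9.71 and 8.83 FPKM in PBS library 2 and at 12.0 and 14.3 in BSN-37 library 3. In the other libraries Hba-a1 was at 0.0697 to 0.389 FPKM and Hbb-bs at 0 to 0.553. Lower sums were those of T and NK cells (1.74 to 2.51 against 1.90 to 4.25 FPKM), eosinophils (0.228 to 0.506 against 0.432 to 0.778), mast cells (0.110 to 0.198 against 0.561 to 0.788), dendritic cells (2.43 to 2.68 against 1.84 to 4.78) and mesothelial cells and fibroblasts (2.79 to 7.70 against 3.43 to 8.35). The part of these shifts in the results below was not tested, and in bulk RNA fewer cells of a type and less RNA per cell cannot be told apart.

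The junctions of 5 circles between coding exons are printed here because these circles were among those with most reads, and because the joined sequence is what a junction read must cross. The lower-case letters are the last 20 bases of the donor exon and the capitals are the first 20 bases of the acceptor exon, 5′ to 3′ on the transcript, read from GENCODE M21 transcripts on GRCm38, which is built from another strain than Balb/c.
Usp3 (chr9:66540062-66566903, minus strand): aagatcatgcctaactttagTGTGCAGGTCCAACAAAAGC
Rnf169 (chr7:99935162-99955540, minus strand): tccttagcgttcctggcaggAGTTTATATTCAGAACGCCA
Rev1 (chr1:38053616-38085652, minus strand): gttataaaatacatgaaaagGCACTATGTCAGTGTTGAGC
Snx13 (chr12:35085939-35107556, plus strand): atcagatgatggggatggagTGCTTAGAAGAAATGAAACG
Sh2d4b (chr14:40840225-40874239, minus strand): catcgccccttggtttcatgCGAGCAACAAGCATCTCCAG
These 5 junctions joined exon 8 to exon 2 of Usp3, exon 4 to exon 2 of Rnf169, exon 22 to exon 7 of Rev1, exon 15 to exon 4 of Snx13 and exon 6 to exon 2 of Sh2d4b. Each acceptor exon lies upstream of its donor exon in the gene, which is what separates such a read from one of the linear mRNA.

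The long span was mostly intron. Span ran from 20028 to 97614 bases with a median of 32634. Both ends fell on annotated exon ends of 1 gene in 143 of the 205 loci (69.8%), against 65.4% of the loci of 20 kb or less. For the 139 of them in which 1 transcript carried both ends, the exons between the ends summed to 291 to 5866 bases with a median of 873, which was 0.614 to 22.6% of the span (median 2.61%). In the annotation a median of 6 exons (range 2 to 31) lay between the ends of these circles, against a median of 3 for circles of 20 kb or less. Which exons or introns a circle kept was not measured. The longest annotated intron between the ends had a median length of 15401 bases (range 3091 to 52206), against 3287 bases in the shorter loci. The flanking introns were long as well. The median was 16851 bases upstream and 10009 bases downstream, against 8282 and 6519 bases for loci of 20 kb or less. These are descriptions of loci, which are not replicates, and the span rule itself favours long introns.

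**Figure D1:**
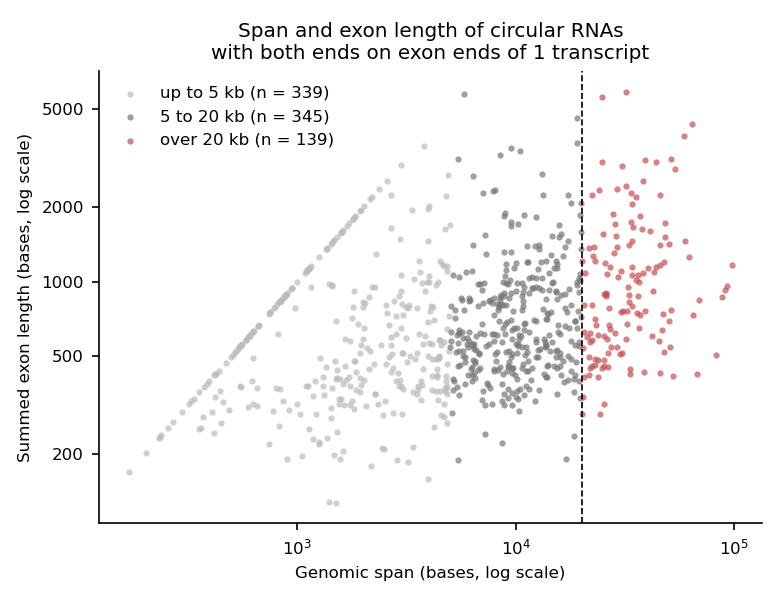
Summed exon length against genomic span, both in bases on log scales, for circular RNAs with both ends on exon ends of 1 transcript, with 1 point per locus and the dashed line at 20000 bases. The 139 loci over 20 kb (red) lie between 291 and 5866 bases of exon, in the same band as the shorter loci.

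The acceptor was most often exon 2. It was exon 2 in 58 of the 139 loci (41.7%), next to 39.5% of the loci of 20 kb or less, and in 7 of the 10 with most reads. The acceptor was exon 1 in 2 of the 139 and the donor was the last exon in 0, against 1 and 1 of the shorter loci. A first exon has no annotated acceptor and a last exon no donor, so low counts were given beforehand. The annotated start codon lay inside the circle in 39 (28.1%, against 21.2% of the shorter loci). In 96 of the 139 (69.1%) all exons were coding, against 75.4% of the shorter loci, and the summed exon length was a multiple of 3 in 52 (37.4%, against 32.0%). By the annotation the circle of Tcf20, a transcriptional coregulator, held 2 exons and 5866 bases, the most exon sequence of the set. The circle of Tmem164, which codes for a membrane protein, spanned 82354 bases for 506 bases of exon.

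**Figure D2:**
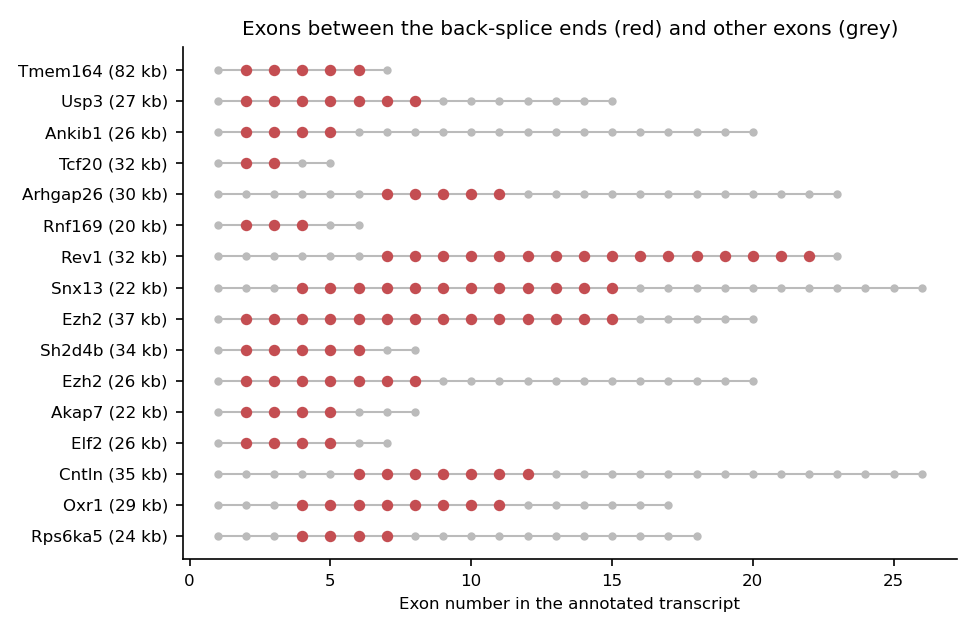
Exon numbers of the annotated transcript for the 16 circles of most reads with both ends on exon ends of 1 transcript, with the exons between the back-splice ends in red and other exons in grey, and the span in kb beside each gene. Most start at exon 2, and exon 1 and the last exon lie outside the circle in all 16.

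Detection was sparse, as it was for shorter loci. The table holds no junction count of 1. Of the 205 loci, 165 (80.5%) had reads in 1 library only, against 76.0% of the loci of 20 kb or less. These 165 together carried 14.6% of the reads of the set. Another 16 loci had reads in 2 libraries, 10 in 3, 3 in 4, 3 in 5 and 8 in all 6. Those 8 carried 55.7% of the 4259 reads. The locus with most reads held 29.8% of them and the top 10 held 73.0%. Those seen in a single library numbered 32, 18 and 32 with PBS and 37, 30 and 16 with BSN-37. Of the 19 loci with 20 or more reads, 11 had a library at 0. A count of 0 thus stood beside many reads of the same circle in another library, and a floor of 3 reads was used where a fold against 0 is given.

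Among circles of 1 gene, Tmem164 had most reads, with 88, 52 and 65 under PBS and 64, 65 and 43 under BSN-37. Usp3, which encodes a deubiquitinase of histone H2A, had 62, 49 and 83 reads with PBS and 0, 66 and 49 with BSN-37. Ankib1, a gene of the ankyrin and RING type, had 34, 46 and 77 reads with PBS and 56, 45 and 36 with BSN-37. The groups overlapped for all 3 of these circles. BSN-37 library 1 had no Usp3 junction read, and its linear Usp3 level of 31.5 FPKM was the highest of the 6 libraries. In gene reads, not scaled for library size, it had 6606 for Usp3, where the 6 libraries had 6262 to 8888. Tcf20 had 52, 37 and 24 reads with PBS and 27, 28 and 23 with BSN-37. The circle of Rnf169, a chromatin-bound ubiquitin-pathway protein of the DNA damage response, had 11, 11 and 42 reads with PBS and 0, 23 and 0 with BSN-37. The circle of Arhgap26, a GTPase-activating protein, had 18, 11 and 10 reads with PBS and 22, 26 and 10 with BSN-37. Each of these 3 also overlapped between the groups, and Rnf169 was at 0 in 2 BSN-37 libraries and above both lower PBS libraries in the other.

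Of the next circles in read order, Rev1, a polymerase that copies past DNA lesions, had 14, 9 and 12 reads with PBS and 9, 7 and 9 with BSN-37. Ezh2, the histone methyltransferase of the Polycomb repressive complex, gave a circle of exons 2 to 15 with 7, 8 and 12 reads with PBS and 10, 8 and 3 with BSN-37. Sh2d4b, which encodes an SH2 domain protein, had 8, 2 and 11 reads with PBS and 9, 4 and 3 with BSN-37. All 3 circles had reads in all 6 libraries at levels far below Tmem164. The circle of Snx13, a sorting nexin, had 0, 15 and 18 reads with PBS and 0, 18 and 0 with BSN-37, so it was seen in 3 libraries at about one level and at 0 in the others.

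**Figure D3:**
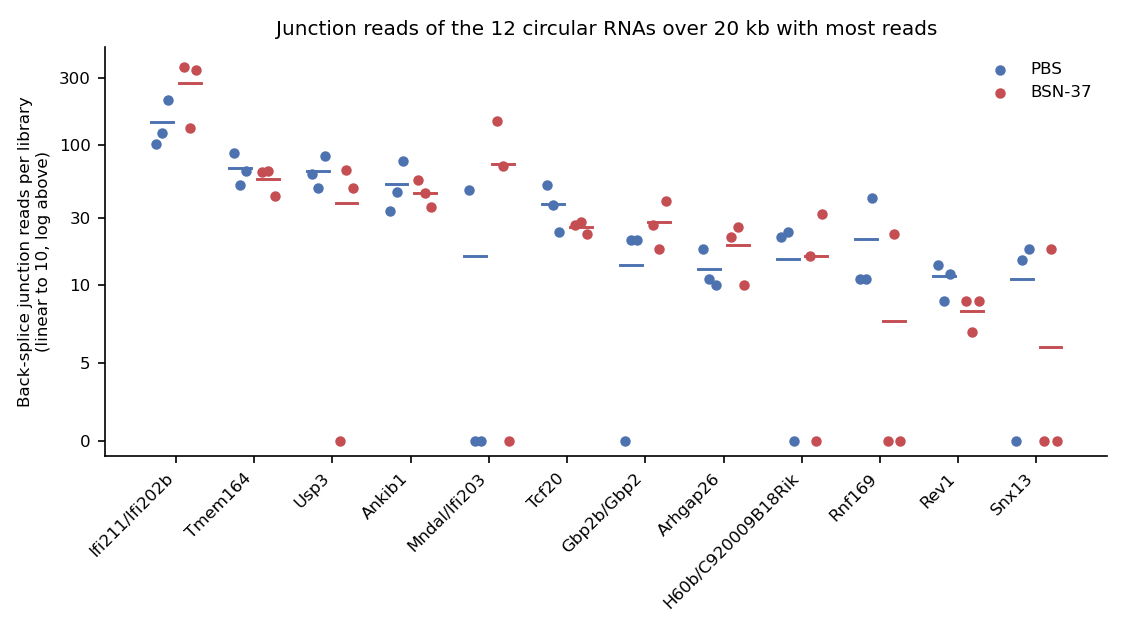
Back-splice junction reads in each library (linear axis to 10, log above) for the 12 circular RNAs over 20 kb with most reads, with 1 point per library, PBS in blue, BSN-37 in red, and a bar at each group mean. Only Ifi211/Ifi202b reaches 100 reads in every library, and 6 of the 12 have a library at 0.

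Reads of a circle were also set against reads of its gene. Over the 6 libraries the circle of Sh2d4b gave 54.1 junction reads per 1000 reads of its gene, and the 3 Ezh2 circles together 17.8. The ratio was 9.34 for Ankib1, 7.06 for Usp3, 4.54 for Tmem164, 2.61 for Tcf20 and 0.610 for Elf2, which encodes an ETS transcription factor. Sh2d4b had a low linear level of 0.480 to 1.04 FPKM, while Tmem164 had 36.7 to 44.8 FPKM. The gene count includes reads from inside the circle and grows with the length of the mRNA, while a circle is counted at its junction only, so the ratios stand side by side without ranking the genes.

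A small group of loci whose ends are not in 1 gene carried much of the signal. In these no single gene held both ends, or the ends fell on exon ends of different genes. There were 22 of them (10.7% of the set, against 4.21% of the loci of 20 kb or less), and they held 1826 reads (42.9% of the set's reads, against 0.827%). Of these reads 1769 (96.9%) came from 5 loci: Ifi211 with Ifi202b, Mndal with Ifi203, Gbp2 with Gbp2b, H60b with C920009B18Rik (which the authors assign to Raet1e), and Naip5 with Naip6. The Ifi genes and Mndal belong to the interferon-inducible PYHIN cluster of nucleic acid sensors, the Gbp genes encode interferon-induced GTPases, H60b and Raet1e encode ligands of the NKG2D receptor, and Naip5 and Naip6 sense flagellin. The other 17 loci had 57 reads in all and at most 7 each, among them 1 between Trim30a and Trim30d with 4 reads. The 9 annotated exon edges used by the 5 loci each had a match at an exon edge of another gene of the cluster, and 3 pairs are printed to show how alike they are, with the bases that differ in capitals.
Mndal exon 4 donor: gaatcaTacaagagtgtaccgtcttcaaag
Ifi203 exon 3 donor: gaatcaAacaagagtgtaccgtcttcaaag
Naip6 exon 9 acceptor: acttgggtaggagtgaagcTcagtggtttc
Naip5 exon 9 acceptor: acttgggtaggagtgaagcCcagtggtttc
Gbp2b exon 5 acceptor: ctatgtgacAgaActGactgatctCatcaa
Gbp2 exon 5 acceptor: ctatgtgacGgaGctAactgatctTatcaa
The printed stretches are the last or first 30 bases of each exon on the transcript strand, from GENCODE M21 on GRCm38. Of 30 bases, 29 were identical in the Mndal and Ifi203 pair and in the Naip pair, and 26 in the Gbp pair. The other edge of the Gbp junction (exon 4 of Gbp2) and that of the Naip junction (exon 8 of Naip5) were identical to the neighbouring gene at 30 of 30 bases. In the Gbp locus the junction joined exon 4 of Gbp2 to exon 5 of Gbp2b, in the Naip locus exon 8 of Naip5 to exon 9 of Naip6, and in the Mndal locus exon 4 of Mndal, the match of Ifi203 exon 3, to exon 4 of Ifi203. By these matches the exon numbers follow each other in Gbp2 and Gbp2b, in Naip5 and Naip6, and in Ifi203. In Mndal they do not, since the Ifi203 exon 4 acceptor matched exon 6 of Mndal at 29 of 30 bases. Over the 9 edges 22 to 30 of 30 bases were identical, the lowest at exon 2 of C920009B18Rik against H60b. Whether reads of these 5 loci came from circles or from linear RNA of the genes at their ends or matched to them was not tested. Differences between Balb/c and the strain of GRCm38 at these loci were not tested either, and the counts of the 5 loci are uncertain.

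The locus with most reads of the set ran from exon 1 of Ifi211 to the start of Ifi202b (chr1:173912814-173982741, minus strand). One end lay on the donor of Ifi211 exon 1, whose last 30 bases are identical to those of Ifi204 exon 1. The other end lay 3 bases inside the annotated first base of Ifi202b, on no annotated exon edge, so this junction has no annotated acceptor. The locus had 102, 122 and 210 reads with PBS and 360, 132 and 342 with BSN-37. BSN-37 libraries 1 and 3 were above all PBS libraries and BSN-37 library 2 was below PBS library 3. The log2 difference was 1.00 (SE 0.48) with an edgeR adjusted p of 0.996 over all 168 loci tested, and the adjusted p ran from 0.0823 to 0.999 over the alternatives run. The linear genes at its ends and beside it had the same libraries high. Ifi202b was at 16.3, 19.6 and 24.0 FPKM with PBS and 55.9, 22.8 and 77.9 FPKM with BSN-37. Ifi211 was at 2.94 ± 0.317 FPKM with PBS and 8.10 ± 4.68 FPKM with BSN-37 (SD, n = 3), and Ifi204 was at 12.6 ± 2.46 and 30.8 ± 16.3 FPKM. The edgeR adjusted p was 0.506 for both Ifi202b and Ifi211, and 0.0383 and 0.0315 without BSN-37 library 2, while DESeq2 gave 0.0209 and 0.0463 with all libraries, and 0.375 for Ifi204 and 0.383 for Ifi203.

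The Mndal and Ifi203 locus (60827 bases) had 48, 0 and 0 reads with PBS and 147, 71 and 0 with BSN-37. It was at 0 in BSN-37 library 3, where linear Mndal (44.4 FPKM) and Ifi203 (59.5 FPKM) were highest. The Gbp2 and Gbp2b locus (22065 bases) had 0, 21 and 21 reads with PBS and 27, 18 and 40 with BSN-37. The H60b and C920009B18Rik locus (21608 bases) had 22, 24 and 0 reads with PBS and 16, 0 and 32 with BSN-37. The Naip5 and Naip6 locus (73223 bases) was seen in BSN-37 library 2 only, with 14 reads. In each of these 4 the groups overlapped.

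**Figure D4:**
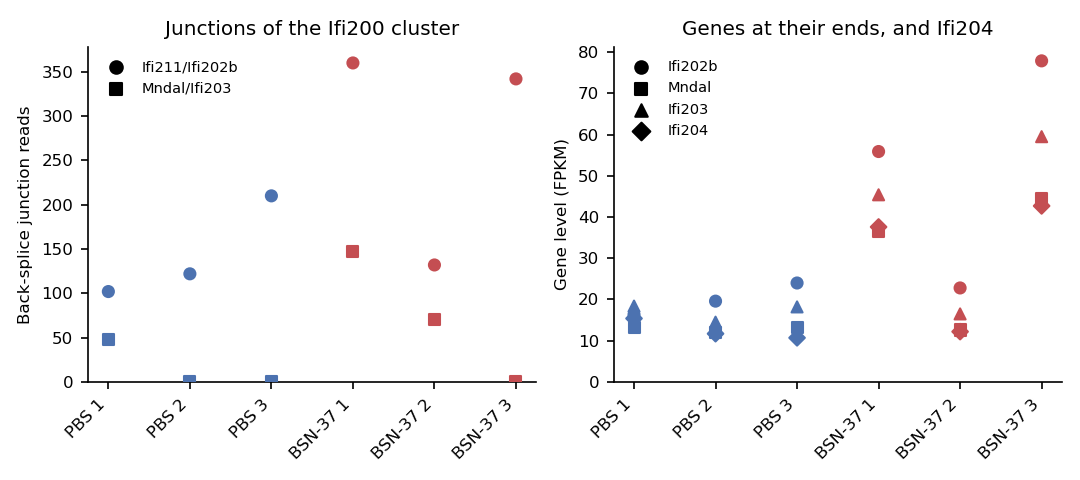
Back-splice junction reads of the Ifi211/Ifi202b and Mndal/Ifi203 loci (left) and linear levels in FPKM of Ifi202b, Mndal, Ifi203 and Ifi204 (right) in each library, PBS in blue and BSN-37 in red, with symbols for loci or genes. BSN-37 libraries 1 and 3 stand high for the Ifi211/Ifi202b junction and the 4 genes, and BSN-37 library 2 does not.

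Whether BSN-37 changed single long-span circles was tested with edgeR's quasi-likelihood test over all loci with reads in at least 3 libraries. This left 168 loci, of which 24 were in the set, and 181 of its loci were not tested. No member passed a Benjamini-Hochberg adjusted p of 0.05 with edgeR, where 0.595% of all tested loci passed, and none with DESeq2, where 1.19% passed. At an unadjusted p under 0.05 there was 1 member with each tool, against 2.98% of all tested loci with either. The groups did not overlap for 1 member, against 5.95% of all tested loci. Of the 24 members, 9 had a log2 difference above 0 and 15 below, with a median of -0.23 beside -0.02 over all 168 loci. In 1 draw of simulated counts for all 168 loci, edgeR recovered 0% of 20 loci changed 4-fold and 5% of 20 changed 16-fold. Differences of that size were thus rarely called in that draw, which was not made for the 24 members alone.

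The member past the unadjusted threshold was Elf2, a circle of exons 2 to 5 (26253 bases, 587 bases of exon). It had 9, 10 and 6 reads with PBS and 0, 0 and 0 with BSN-37. With a floor of 3 reads set for the BSN-37 group the scaled level was 8.11-fold lower. That fold rests on the chosen floor and is not a bound, since other circles were at 0 in a library beside many reads in another. The edgeR adjusted p was 0.968, and over the alternatives it ran from 0.0586 with DESeq2 to 0.997 with the replicate number as a block. The filter lets a locus enter through 1 group alone, as here. Linear Elf2 was at 21.4, 24.3 and 19.8 FPKM with PBS and 21.1, 29.2 and 27.5 FPKM with BSN-37, with a log2 difference of 0.09 (SE 0.11). The authors' deposited table calls this locus lower, with its p at 0.0200, and calls no other locus of the set. Over all loci it calls 1.10% lower and 0.471% higher.

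The other members of lowest p by direction did not pass either threshold. Those higher with BSN-37 were Rps6ka5, which encodes a kinase that phosphorylates histones and CREB (0, 3 and 0 reads against 12, 0 and 4), and Pms1, a mismatch repair gene (0, 4 and 0 reads against 0, 7 and 2), beside the Ifi, Gbp and Arhgap26 loci above. Those lower were Strbp, which encodes an RNA-binding protein (8, 0 and 3 reads against 0, 2 and 0), and Cwf19l2, related to a yeast splicing factor (3, 5 and 5 reads against 0, 0 and 6), beside Tcf20, Rnf169 and Usp3. All 4 named here overlapped between the groups and had libraries at 0 in both or in 1 of them.

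The set as a whole was compared by 4 measures, each with an exact two-sided permutation test over the 6 libraries, whose smallest possible p is 0.1. Loci of the set took 16.2, 18.0 and 17.6% of all junction reads with PBS and 20.7, 18.1 and 27.6% with BSN-37, means of 17.3 ± 0.942% and 22.2 ± 4.91% (SD, n = 3). The Wilson 95% interval ran from 15.1 to 17.4% in the lowest library and from 25.9 to 29.4% in the highest, for counting error only. All 3 BSN-37 libraries were above all PBS libraries, BSN-37 library 2 by little, and the exact p was 0.1 (0.400 adjusted over the 4 measures). Without the loci whose ends are not in 1 gene the shares were 12.5, 12.8 and 12.8% with PBS and 9.79, 12.4 and 12.6% with BSN-37. The difference in means was then -1.09 percentage points instead of 4.90, with an exact p of 0.200 and the groups overlapping. Without BSN-37 library 3 the difference over all loci was 2.17 points.

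**Figure D5:**
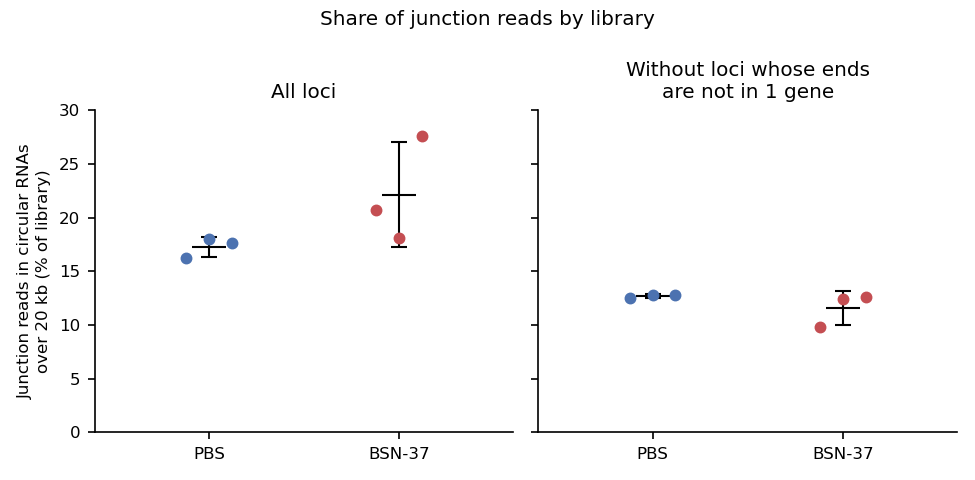
Percent of each library's junction reads in circular RNAs over 20 kb, with all loci (left) and without the loci whose ends are not in 1 gene (right), with 1 point per library and the mean ± SD (n = 3). The means are 17.3 and 22.2% on the left and 12.7 and 11.6% on the right, where the order of the groups is turned.

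The other 3 measures overlapped between the groups. The set made up 15.4 ± 0.752% of detected loci with PBS and 15.7 ± 1.33% with BSN-37 (SD, n = 3, exact p 0.800). Its reads divided by each library's scaling constant were 41.0, 28.7 and 39.3 with PBS and 58.0, 40.4 and 34.3 with BSN-37, means of 36.3 ± 6.70 and 44.2 ± 12.3 (SD, n = 3, exact p 0.500), and 25.3 and 20.8 without the loci whose ends are not in 1 gene. Its junction reads per M host gene reads were 2113, 1116 and 1546 with PBS and 1898, 1472 and 766 with BSN-37 (exact p 0.700). Each of these 3 had an adjusted p of 0.800. BSN-37 library 3 had the lowest ratio to host genes and the highest share of junction reads, but these measures do not cover the same loci. The authors name no host gene for the Ifi211 with Ifi202b and Gbp2 with Gbp2b loci. Their 342 and 40 reads in BSN-37 library 3 are in the share and not in the ratio. The scaled level of the set in BSN-37 library 3, 34.3, was below those of PBS libraries 1 and 3. Its levels of 21.9 for loci of 5 to 20 kb and 67.8 for loci of up to 5 kb were the lowest of the 6 libraries.

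The linear host genes were examined because a circle can follow its gene. The authors name 159 host genes for the set, of which 124 passed a filter of 1 FPKM in at least 3 libraries. None passed edgeR's adjusted threshold, as 0% of the 11669 genes tested did. At an unadjusted p under 0.05 there were 13 (10.5%), 9 higher and 4 lower, against 8.23% of all genes. The groups did not overlap for 21 (16.9%), against 13.9% of all genes, and the median log2 difference was 0.08 beside 0.00. DESeq2 passed 4 host genes, against 1.03% of all genes. Pde7b, a cAMP phosphodiesterase, was at 1.90 ± 0.725 and 4.84 ± 0.440 FPKM (SD, n = 3, DESeq2 adjusted p 0.00114). Dennd1b, an exchange factor for Rab GTPases, was at 3.62 ± 0.401 and 5.25 ± 0.378 FPKM (DESeq2 adjusted p 0.0288). Plcb1, a phospholipase C, was at 2.06 ± 0.478 and 3.72 ± 0.438 FPKM (DESeq2 adjusted p 0.0209), and Mndal had a DESeq2 adjusted p of 0.0489. The circles of these genes other than Mndal were thin. Pde7b had 5 junction reads in PBS library 3, Plcb1 had 2 in PBS library 1 and Dennd1b had 9 in BSN-37 library 1, with 0 in the remaining libraries.

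Factors that act on circles were followed in a list of 30 biogenesis genes, RNA-binding proteins and splicing factors that favour or hinder back-splicing, of which 27 were tested. Of these 19 had a log2 difference above 0 and 8 below, with a median of 0.11 beside 0.00 for all genes. For several, PBS library 1 was the lowest of the 6 libraries. Sf3b1 was at 33.3, 52.9 and 47.6 FPKM with PBS and 49.8, 53.2 and 57.7 with BSN-37. Rbm25 was at 16.8, 33.0 and 27.0 against 29.5, 32.2 and 39.9 FPKM. For others it was not, as for Hnrnpl (89.9, 84.3 and 69.7 against 76.7, 90.6 and 76.1 FPKM). At an unadjusted edgeR p under 0.05 there were 2 higher and 1 lower, against 8.23% of all genes, and 0 passed the adjusted threshold with edgeR or DESeq2. Mbnl1, a splicing regulator whose Drosophila homologue binds its own circle, was at 47.5, 73.9 and 71.0 FPKM with PBS and 85.3, 94.2 and 89.2 with BSN-37. Ddx5, an RNA helicase, was at 107, 148 and 147 FPKM with PBS and 165, 169 and 173 with BSN-37. Sf3a1, a subunit of the U2 snRNP, was at 10.2, 9.81 and 10.1 FPKM with PBS and 9.24, 7.89 and 7.52 with BSN-37. For these 3 the groups did not overlap, as for 13.9% of all genes, and the edgeR adjusted p was 0.589, 0.606 and 0.606. In a list of export, decay and sensing factors 22 of 24 were tested, with a median of -0.03. Ran, the GTPase of nuclear transport, was the only one at an unadjusted p under 0.05 (37.6, 34.5 and 32.3 FPKM against 28.7, 30.5 and 25.6, edgeR adjusted p 0.543).

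Several genes gave more than 1 long-span circle. The 205 loci touched 176 genes, 20 of which had 2 or more, and 75 loci (36.6%) shared an end with another circular RNA of the table, 44 of them (21.5% of the set) with another member. Akap7, Atxn7, Ezh2, Foxp1, Nfatc2, Rps6ka5 and Tecpr2 had 3 each. The 3 circles of Akap7, which anchors protein kinase A, all started at exon 2 and ended at exon 5, 6 or 7, with 28, 2 and 3 reads. Those of Tecpr2, an autophagy gene, all started at exon 3 and ended at exon 6, 13 or 18, with 7, 7 and 4 reads. In Akap7 the shortest of the 3 had most reads, and in Tecpr2 no form stood out. In Ezh2 the circle of exons 2 to 15 had 48 reads and the one of exons 2 to 8 had 29, while another of 25951 bases had 2. The transcription factor Nfatc2 gave 3 circles of 2, 2 and 3 reads, and also 2 loci of 4495 and 3975 bases with 46 and 41 reads. The long circles of Nfatc2 were thus the less read forms. Foxp1, another transcription factor, had 6, 0 and 10 reads with PBS and 0 in each BSN-37 library for its locus of 21365 bases, and its other 2 loci had 3 and 4 reads, all with PBS. The 3 Foxp1 loci share 1 end. Atxn7, a subunit of the SAGA coactivator, had 3 loci of 4, 2 and 3 reads that share their start. In 65 of the 176 genes (36.9%) a circle of 20 kb or less was also listed.

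The authors' deposited table lists candidate miRNAs for each circle. It lists at least 1 for 162 of the 205 loci (79.0%), against 62.3% of the loci of 20 kb or less. The median was 2 for loci with both ends on exon ends of 1 gene, and 122, 157 and 160 for those with 1 end on an exon end, no end on one and ends not in 1 gene. In 96 exonic circles the list holds 1040 pairs with a miRNA of known sequence, and 335 of these (32.2%) had a match to the seed in the joined exons, 1 of them across the junction. A match was 7 letters complementary to bases 2 to 8 of the miRNA on the transcript strand only. The same share was not computed for pairs that are not listed, so the 32.2% has no background beside it. The miRNA listed for most loci and a pair with most sites in the Tcf20 circle are shown, from RefSeq (GRCm38.p6), with the seed in capitals.
mmu-miR-7686-5p: cCUUCCACuggaccuggggcugggc
mmu-miR-331-3p: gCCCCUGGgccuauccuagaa
mmu-miR-370-3p: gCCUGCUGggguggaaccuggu
The first was listed for 85 loci. Its match GTGGAAG occurs in 23.0% of the exonic circles, once each in those of Usp3, Snx13 and Arhgap26, and not in that of Rev1, for which the authors' deposited table lists it too. The match CCAGGGG of miR-331-3p occurs 4 times in the Tcf20 circle and in 10.8% of the exonic circles, and the match CAGCAGG of miR-370-3p 4 times and in 21.6%. The 3 seeds differ, and a match is a string in the sequence and not evidence of binding.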

How the data were processed

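Total RNA from adherent peritoneal cells was depleted of rRNA and sequenced with a directional kit, per the labels' protocols (build GRCm38 in the submitters' processing notes). Of the aligner and the caller of back-splices nothing is stated in these sources. The deposited tables hold junction and gene read counts. The authors also deposited FPKM per gene and SRPBM, a junction signal equal to the count divided by a constant per library. The authors deposited a p-value and a log2 fold change per circular RNA, with a call of up or down. The 4 columns of group values were not used. Counts were tested with edgeR 4.0.16 (quasi-likelihood, R 4.3.3), for junctions with libraries scaled by the SRPBM constants and reads in at least 3 libraries, and for genes with TMM and at least 1 FPKM in 3 libraries. Alternatives used DESeq2 1.42.0 and limma 3.58.1 with log2(SRPBM + 0.1) or log2(FPKM + 1). The scripts were tested on simulated data. Ends were matched to GENCODE M21. Named loci are the 10 with most reads, the 6 per direction of lowest p, the 4 longest in 3 or more libraries and those of genes with most loci (7 tied), with their hosts and up to 4 listed factors of lowest p per list. Others shown were chosen after their values were seen. The loci and lists were chosen with earlier results of these data known. Splice-site bases, which need a genome, were not analysed here.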

Additional observations from a re-analysis of the deposited data

How the results depend on the processing

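The count of members past the adjusted edgeR threshold was 0 under every alternative run. DESeq2 gave 4 host genes instead of 0. Leaving out each library in turn gave 0 to 1 host genes (Mndal, without BSN-37 library 2) and 0 to 0 members. Without BSN-37 library 2, 1 of 123 host genes passed beside 12 of all 11494 genes tested. Without BSN-37 library 3 these were 0 of 124 and 1 of 11450. The difference between groups, BSN-37 minus PBS, then ranged from 2.17 to 6.91 points for the share of junction reads, from -0.322 to 1.01 points for the share of detected loci, from 0.992 (without BSN-37 library 1) to 12.9 for the scaled level and from -473 to 93.0 for junction reads per M host gene reads. The sign turned without PBS library 1 or BSN-37 library 3 for the share of detected loci and for the ratio to host genes.

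Against 0.326 points, the share of detected loci differed by -0.803 at a limit of 10 kb and by -0.264 for loci in at least 3 libraries. Against -213, the ratio to host genes differed by 922 at a limit of 50 kb. Without the loci whose ends are not in 1 gene, chosen after seeing the data, the share of reads differed by -1.09, the share of detected loci by -0.0317 and the scaled level by -4.47. For the first and the last, the removed reads numbered 181, 180 and 240 with PBS and 556, 245 and 424 with BSN-37. The cause of the other changes was not tested. The log2 difference of 16 of the 24 tested members kept its direction under every alternative run, and 8 circles turned. Leaving out each library in turn gave -0.40 to 0.11 for Tmem164, -0.33 to 0.22 for Ankib1, -0.97 to 0.07 for Sh2d4b, -0.64 to 0.14 for Ezh2 exons 2 to 15, -1.11 to 0.03 for Ezh2 exons 2 to 8, -0.16 to 0.99 for Akap7, -0.54 to 0.62 for Cntln and -0.83 to 0.57 for H60b with C920009B18Rik. With library sizes from gene reads, from junction reads and by TMM, Cntln was at -0.04, -0.47 and -0.33 and the H60b locus at 0.06, 0.29 and 0.15. None of these passed the adjusted threshold.

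Same-numbered libraries share only a number: their deviations from the group means correlated at 0.0336, 0.106 and -0.0414 over genes. With the replicate number as a block the count of members stayed 0 and that of host genes 0, and the differences were the same 4.90, 0.326, 7.88 and -213 (exact sign-flip p 0.250, 0.500, 0.500 and 0.750). The smallest two-sided sign-flip p of 3 pairs is 0.250, so the first could not be lower. Counts were low: most circles had single-digit counts, and 3 against 3 libraries cannot give an exact p under 0.1.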
